A study of Mus musculus with 4 samples.

Results

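The 54 genes described here act in G2 and M phase of the cell cycle, and all 54 were found among the 32285 genes counted. They were taken as a fixed list of named genes and not by a cutoff on their values, but with earlier results of these data known. Their unique molecular identifiers (UMIs, each standing for 1 captured transcript) were summed per cell class in 4 droplet single-cell RNA sequencing libraries. The mice were 6 to 8 weeks old, of strain C57BL/6J, and had been transplanted with MA9 cells, blood progenitors of the mouse that the MLL-AF9 fusion gene has turned into a transplantable acute myeloid leukemia. In the shPrmt9 groups the leukemia cells carried a doxycycline-inducible hairpin against Prmt9, an arginine methyltransferase, and in the Ctrl groups a control hairpin. All 4 groups (BM-Ctrl and Spleen-Ctrl, BM-shPrmt9 and Spleen-shPrmt9) drank doxycycline for 7 days, and each is 1 library of 1 mouse described as representative, so every difference is between single libraries and has no replicate check or p-value. The hairpin was placed in the leukemia cells, so T, B and erythroid cells of the recipients were not its direct target.

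A dividing cell enters mitosis when CDK1 is switched on by its cyclins, builds a spindle with kinesin motors and microtubule proteins, and holds its chromosomes by their kinetochores until the spindle checkpoint is satisfied. The anaphase-promoting complex, with its activator CDC20, then destroys securin and the cyclins, and the chromosomal passenger complex and the cytokinesis proteins separate the daughter cells. The transcripts of most of these genes rise in G2 and vanish in resting cells, so the list reads out cycling cells in a mixed tissue. Many are held off in resting cells and switched on in G2 through a promoter element called CHR, usually TTTGAA or TTCGAA near the start site, often with CCAAT boxes upstream that bind NF-Y. Birc5, which encodes survivin, is also the tumor antigen that the study followed in T cell assays.

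Of the 54 genes, 45 had a promoter of 250 bases before to 50 bases after the start site in RefSeq's table (GRCm38.p6). On either strand TTTGAA was found in 34 of the 45 genes, against 20.2% of all genes with such a promoter, and TTCGAA in 4, against 1.8%. CCAAT was found in 33 of 45, against 41.1% of all genes, and 29 of 45 held both TTTGAA and CCAAT, against 7.97%. In 32 of the 36 genes with either CHR element the nearest match began within 50 bases of the start site. In 7 genes (Nuf2, Nusap1, Ncaph, Tacc3, Mad2l1, Pttg1 and Birc5) none of the 3 motifs was matched in the window, which says only that these letters were not there. The following stretches of 60 bases, with the 3 motifs on either strand in capitals (overlaps allowed), show the shared element in genes of different roles, with the kinesin Kif20b carrying it in tandem and Mki67 holding a pair of copies.
Ccnb2 (chr9:70421518-70421577, minus strand): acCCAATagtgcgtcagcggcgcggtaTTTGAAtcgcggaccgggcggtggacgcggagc
Cdc20 (chr4:118437329-118437388, minus strand): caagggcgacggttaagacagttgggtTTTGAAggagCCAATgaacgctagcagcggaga
Ube2c (chr2:164769873-164769932, plus strand): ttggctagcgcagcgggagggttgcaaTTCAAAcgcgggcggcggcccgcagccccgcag
Cenpa (chr5:30666875-30666934, plus strand): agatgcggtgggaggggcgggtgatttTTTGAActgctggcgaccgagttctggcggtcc
Kif23 (chr9:61946765-61946824, minus strand): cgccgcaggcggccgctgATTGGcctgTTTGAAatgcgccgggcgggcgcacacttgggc
Kif20b (chr19:34922338-34922397, plus strand): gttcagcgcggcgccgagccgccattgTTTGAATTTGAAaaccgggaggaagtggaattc
Hmmr (chr11:40733397-40733456, minus strand): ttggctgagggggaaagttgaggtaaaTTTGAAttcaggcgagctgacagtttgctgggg
Top2a (chr11:99024180-99024239, minus strand): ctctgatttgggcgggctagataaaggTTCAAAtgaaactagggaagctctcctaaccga
Mki67 (chr7:135716445-135716504, minus strand): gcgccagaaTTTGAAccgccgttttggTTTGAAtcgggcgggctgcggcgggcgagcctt
The next stretches are from Pttg1 (securin) and Birc5, shown because Pttg1 stood apart from the other members in several classes below and Birc5 is the antigen gene, and they hold none of these letters. Another gene annotation places the start of Pttg1 at 43426251, upstream of the stretch shown. The window searched was thus not set on that start, and whether the motifs lie there is not known.
Pttg1 (chr11:43425952-43426011, minus strand): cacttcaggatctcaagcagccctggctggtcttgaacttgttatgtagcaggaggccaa
Birc5 (chr11:117849207-117849266, plus strand): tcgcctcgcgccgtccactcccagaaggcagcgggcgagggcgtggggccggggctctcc

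Cells were assigned to classes by marker genes, none of which is among the 54. A cell joined a class when it carried at least 3 markers of it above their mean level, and cells with markers of 2 lineages were set aside as mixed, which also served in place of a doublet caller (3.02% to 5.63% of cells per library). The names end in "-like" because they rest on these markers alone, and the study's own cell labels were not used here, so values may differ from the study's because cells were named anew. The libraries held 84009744 to 188030429 UMIs in 8648 to 11315 barcodes, of which 8065 to 11174 were kept, and between 15 and 35 barcodes were shared by any pair of libraries. Of the kept cells, 1.95% to 15.4% matched no class, the highest share in Spleen-shPrmt9. Y-linked genes outside MA9-like cells had 0 and 1 UMI in the marrow libraries and 17644 and 16252 in the spleen libraries, so marrow and spleen came from different animals and every difference between the tissues is also one between mice. Prmt9 was at 11.2 CPM (UMI counts scaled to 1000000 UMIs of the class) in MA9-like marrow cells of Ctrl and 6.17 with shPrmt9, and at 15.9 and 4.26 CPM in those of spleen. It was also lower in T-like cells of spleen (15 against 9.01 CPM), where no hairpin is expected.

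MA9-like cells carried at least 3 of Hoxa9, Hoxa10, Hoxa7, Hoxa5, Hoxa3, Meis1 and Pbx3, genes that MLL fusions keep active. Hoxa9 stood at 219 and 313 CPM in the MA9-like cells of marrow (Ctrl and shPrmt9) and at 179 and 187 CPM in those of spleen, against 6.26 and 11.8 CPM in the mature neutrophil-like cells of the marrow libraries. Hoxa9 is one of the genes that chose these cells, so its level is no independent check of the name, and neutrophil genes were present as well. The 5 granule protease markers summed to 8796 and 11651 CPM in the MA9-like cells of marrow, and the 6 markers of granule-forming neutrophils to 1034 and 2983. In MA9-like cells of Spleen-shPrmt9 the granule-forming markers reached 13905 CPM, above the 3479 of Spleen-Ctrl. T cell markers summed to 2.82 to 35 CPM in the 4 groups. Of the MA9-like cells of marrow, 1342 of 1542 in Ctrl and 1441 of 1605 with shPrmt9 carried 4 or more markers, and the rest sat at the limit of the gate.

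The members were most abundant in erythroid-like cells of the marrow and scarce in mature neutrophil-like cells, with MA9-like cells in between. Their summed level in BM-Ctrl was 10796 CPM in earlier erythroid-like cells, 8714 in late erythroid-like cells, 4533 in basophil-like cells and 3593 in 28 precursor B-like cells. Monocyte/macrophage-like cells stood at 3181, MA9-like cells at 2830, neutrophil progenitor-like cells at 2485 and granule-forming neutrophil-like cells at 2426. B-like cells followed at 1911 CPM, T-like cells at 886, NK-like cells at 567 and mature neutrophil-like cells at 341. A single cell held 41.9% of the member UMIs of the precursor B-like cells. In spleen the order on this scale was different. Among classes of at least 20 cells in Spleen-Ctrl, MA9-like cells were highest, at 1639 CPM. Granule-forming neutrophil-like cells followed at 1413, and erythroid-like cells were only at 604. Scaled to UMIs outside globin genes, erythroid-like cells of Spleen-Ctrl stood at 3282 CPM, so their place in this order depends on globin. The levels of neighboring classes in spleen, such as T-like cells (677 CPM) and late erythroid-like cells (586), are single values, and how far such classes vary between animals is unknown. Fewer cycling cells and less RNA per cycling cell cannot be told apart in a summed level.

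**Figure D1:**
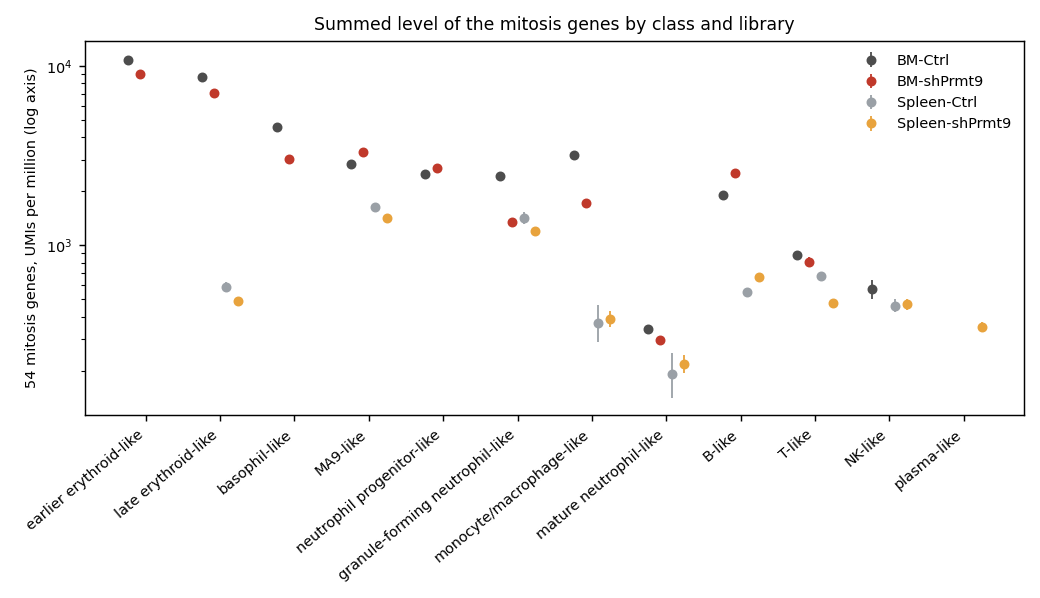
Summed level of the 54 mitosis genes in CPM of each class (vertical axis, log scale) in the 4 libraries, with exact Poisson 95% intervals that cover counting error only. Marrow erythroid-like cells lie highest, at 7082 to 10796, mature neutrophil-like cells lowest, at 191 to 341, and late erythroid-like cells of spleen (586 and 489) lie far below those of marrow.

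Mature neutrophils have left the cell cycle, and mature neutrophil-like cells served as a low reference. The class may still hold cycling cells, since a single cell held 11.2% of its member UMIs in BM-Ctrl. What part of its level is free RNA was not tested. In MA9-like cells of BM-Ctrl the median member was 13.8-fold above its level in mature neutrophil-like cells, and 36 of 54 were at least 10-fold above it. In BM-shPrmt9 the median was 25.1-fold and 47 were at least 10-fold above. The exceptions in BM-Ctrl, under 5-fold, were Cdc25b (0.252), Pttg1 (0.619), Kif23 (1.62), Bub3 (3.38) and Cenpa (4.11). Cdc25b encodes a phosphatase that activates CDK1, Kif23 a kinesin of the central spindle, Bub3 a checkpoint protein and Cenpa the histone of the centromere. Cdc25b and Pttg1 were thus lower in MA9-like cells than in mature neutrophil-like cells, Kif23 was little higher, and Bub3 and Cenpa were higher by less than most members. The 5 members at the highest level in mature neutrophil-like cells of both marrow libraries were Smc4, Pttg1, Bub3, Cenpa and Cdc25b, and the shares of cells with at least 3 members below are also given without these.

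Marrow MA9-like cells held the members at a sum of 2830 CPM (1542 cells) in Ctrl and 3314 CPM (1605 cells) with shPrmt9, a ratio of 1.17 (95% interval 1.17–1.18, counting error only). Per gene, 48 of 54 had a ratio above 1, with a median of 1.33 against 1.01 over all genes counted in these cells. At the size set for a call, 1.5-fold with at least 20 UMIs over both libraries, 17 of 54 members were higher and 0 lower, where 21.2% of all genes were called higher and 16.2% lower. The 17 called higher are to be read against that background of 21.2%, and no member was among the genes called lower. The direction of the summed level depended on the gate. When cells whose granule protease score was the highest were counted as neutrophil progenitors, the ratio turned to 0.825 (0.817–0.833), as described below.

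The kinase engine of mitosis went from 423 to 538 CPM in sum (ratio 1.27). Cdk1, the kinase itself, was at 103 CPM in Ctrl and 121 with shPrmt9 (ratio 1.17). Cdc25b went from 4.62 to 8.92 (1.93, 1.72–2.17) and Plk1, a kinase of spindle poles and kinetochores, from 17.7 to 25.9 (1.46, 1.37–1.56). Of the 9 genes in this group only Cdc25b was called. The cyclins Ccnb1, Ccnb2 and Ccna2 have ratios above 1 too, but counts of Ccnb1 and Ccnb2, like those of Kif4 and Kif22, are less certain because near-identical pseudogene copies exist.

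The ubiquitin system of anaphase did not move as a group, at 271 and 263 CPM (ratio 0.972). Its members differed in direction. Ube2c, the ubiquitin-conjugating enzyme of the complex, was at 213 CPM in Ctrl and 174 with shPrmt9 (0.818). Cdc20 was at 35.1 and 54.7 CPM (1.56, 1.49–1.63) and Pttg1, the securin that guards separase, at 23.3 and 34.7 (1.49, 1.41–1.58). Ube2c supplied most of the group's UMIs, so the sum followed it.

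Among spindle checkpoint genes (196 and 234 CPM, ratio 1.19), Bub3 had the most UMIs and Bub1, a kinetochore kinase, was the 1 called higher, from 20.7 to 32.3 CPM (1.56). Centromere and kinetochore genes summed to 304 and 405 CPM (1.33), with Cenpa at 107 and 141 CPM and Cenpf, a large kinetochore protein of G2 cells, at 52.1 and 91.4 (1.76, 1.69–1.82). In the chromosomal passenger complex (289.7 and 342 CPM, 1.18) the subunits went different ways. Birc5 was at 75.3 CPM in Ctrl and 137 with shPrmt9 (1.82, 1.77–1.88), whereas Cdca8, which encodes borealin and binds survivin directly, was at 120.4 and 95.8 CPM (0.796). The kinase subunit Aurkb and the scaffold Incenp were not called.

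Kinesin motors (121 and 179.6 CPM, ratio 1.49) and cytokinesis genes (63 and 94.6 CPM, 1.5) had the largest ratios of the role groups. Kif20a, a motor that brings the passenger complex to the midzone, had the highest ratio of all members, 2.34 (2.13–2.56), at 7.18 CPM in Ctrl and 16.8 with shPrmt9. Kif11, the motor that pushes the poles apart and the kinesin with the most UMIs, was at 41.3 and 49.6 CPM (1.2), and 4 of the 7 kinesins were called higher. Racgap1, which sets the cleavage plane with Kif23 and Ect2, went from 28.1 to 50.6 CPM (1.8, 1.72–1.89). Of the spindle microtubule proteins (276 and 358 CPM, 1.3), 4 of 8 were called higher. Hmmr stood at 49.8 and 75.3 CPM (1.51) and Ckap2l at 16.9 and 30.8 (1.83).

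Chromosome structure genes gave the highest level of any group and nearly the same sum in both libraries, 887 and 899.8 CPM (ratio 1.01). Smc4, a condensin core subunit and the member with the most UMIs of all, had the lowest ratio of the 54, 0.777, at 369 CPM in Ctrl and 287 with shPrmt9. Top2a, the topoisomerase that untangles sister chromatids, was at 228 and 218 CPM. Mki67, the Ki-67 proliferation marker, was at 102 and 163 CPM (1.59, 1.55–1.64) and the condensin subunit Ncapd2 at 16 and 29.4 (1.83). Without Smc4, Top2a, Ube2c, Bub3 and Cenpa, the 5 members with the most UMIs, the summed ratio of all members in marrow MA9-like cells was 1.32 (1.31–1.33).

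**Figure D2:**
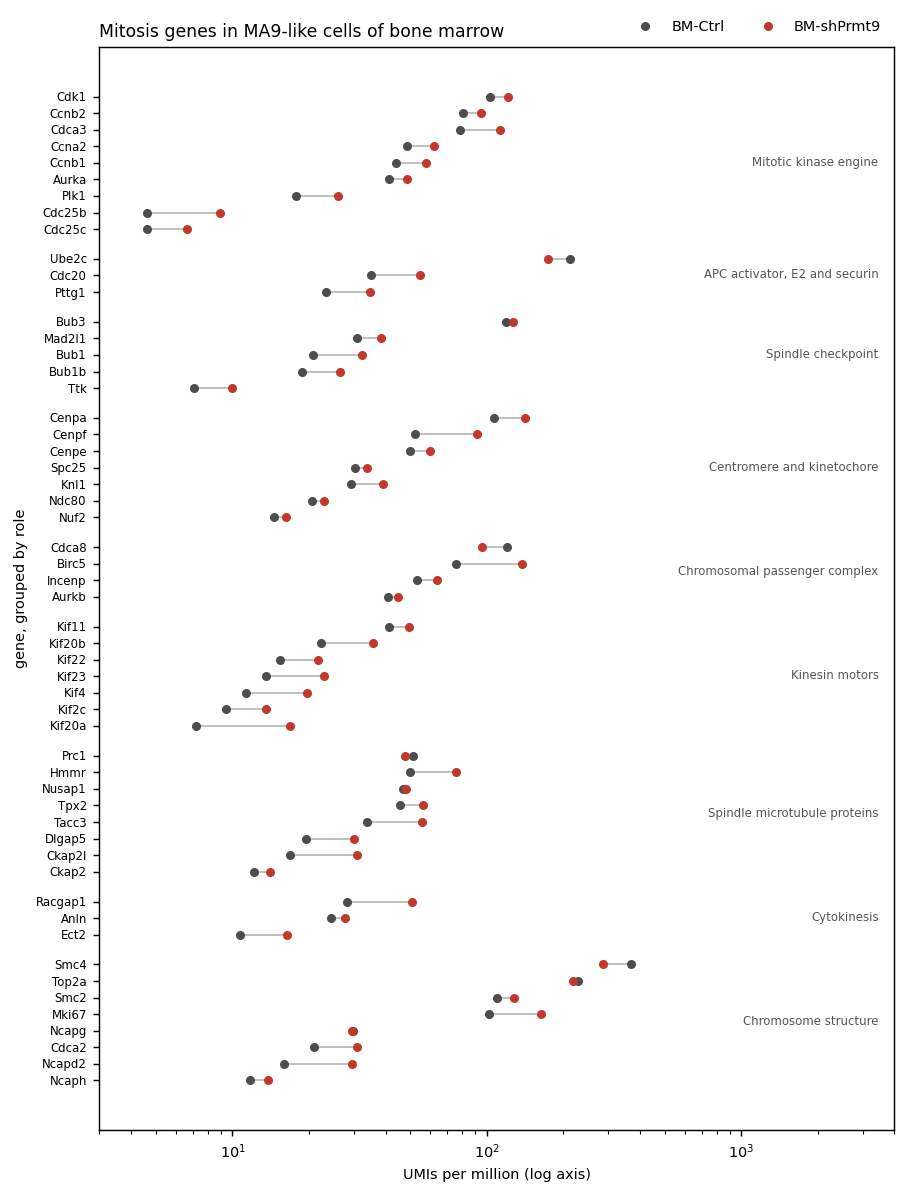
Level of each of the 54 members in MA9-like cells of bone marrow, in CPM (horizontal axis, log scale), grouped by role, with gray points for BM-Ctrl and red for BM-shPrmt9. Red lies to the right for 48 of 54 genes, farthest for Kif20a (7.18 and 16.8), and to the left for Smc4, Cdca8 and Ube2c among others.

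Genes of S phase, which copy the DNA before mitosis, differed by more than the mitosis genes in the same cells. The 25 S-phase genes summed to 1075 CPM in Ctrl and 1957 with shPrmt9 (ratio 1.82, 1.81–1.83), and 16 of 25 were called higher and 0 lower. Fen1, a flap nuclease of lagging strands, went from 27.3 to 70.3 CPM (2.57), Mcm4, a subunit of the replicative helicase, from 27.6 to 66.9 (2.43), and Tyms, which makes thymidylate, from 43.6 to 96.9 (2.23). The members were at 2.63 UMIs per S-phase UMI in Ctrl and 1.69 with shPrmt9, a ratio of 0.643 (0.637–0.649). Of 31 other mitosis genes, such as Foxm1 and Aspm, 8 were called higher and 0 lower. Cohesin genes (0 of 9 called) and subunits of the anaphase-promoting complex (1 higher and 1 lower of 13) had summed ratios of 1.02 (1.01–1.03) and 1.14 (1.13–1.15), the second close to the 1.17 of the members. Cell cycle inhibitors were mixed, with 1 of 11 called higher (Cdkn1c, 10.5 to 43 CPM, ratio 4.08) and 4 lower, among them Cdkn2a (29.5 to 10.5, 0.357).

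MA9-like cells of marrow were not alike in the 2 libraries. In BM-Ctrl 1008 cells had their highest score for the Hox group and 534 for the granule proteases, in BM-shPrmt9 490 and 1115. In the cells with the Hox score highest the members summed to 2868 CPM in Ctrl and 2365 with shPrmt9, a ratio of 0.825. There, 2 of 54 members were called higher and 4 lower, against 21.6% and 21.5% of all genes, and 39 of 54 had a ratio below 1. In the cells with the protease score highest the sums were 2752 and 3630 CPM (1.32, 1.31–1.33), with 28 of 54 called higher and 0 lower, against 21.9% and 14% of all genes. The higher summed level with shPrmt9 was thus carried by the cells with granule proteases, which were also the more numerous in that library. Elane, the neutrophil elastase gene, was at 2084 and 4355 CPM in the MA9-like cells of the marrow libraries, and what part its moving with the members had was not tested. S-phase genes were higher in both subsets, at 984 and 1327 CPM with the Hox score highest (1.35) and 1257 and 2166 with the protease score highest (1.72).

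Shares of cells were also higher with shPrmt9 after every cell had been thinned to 2000 UMIs, to take away differences in depth. At least 3 of the 54 genes were found in 43.5% (41–46) of 1542 MA9-like cells in BM-Ctrl and 55% (52.6–57.5) of 1604 in BM-shPrmt9, a ratio of 1.27 (1.14–1.4). Mature neutrophil-like cells gave 1.94% and 1.99%, and without the 5 genes that these also hold the shares in MA9-like cells were 35.6% and 47.3%. Median depths before thinning were 58866 and 52890 UMIs in MA9-like cells and 3681 and 5943 in mature neutrophil-like cells, and the unthinned shares were 99.8% and 99.1%, and 8.67% and 18.5%. With the Hox score highest the shares were 38.9% and 28.2%, a turn of direction (ratio 0.726, 0.593–0.883), and with the protease score highest 48.5% and 65.5%. Thinned to 5000 UMIs, the shares over all MA9-like marrow cells were 68.9% and 74.7%, a ratio of 1.08 (0.997–1.18). This interval treats numbers of cells as Poisson counts and is too wide for shares of this size, so nothing is drawn from its reach below 1. At 20000 UMIs per cell, which 39 and 87 of the MA9-like marrow cells did not reach, 33.6% and 48.4% of cells carried 20 or more of the genes.

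Cells with many members were set against cells with few, by chosen cutoffs. At 20000 UMIs per cell the median MA9-like cell held 10 members in BM-Ctrl and 18 in BM-shPrmt9. Cells with at least 10 but fewer than 20 members were left out of this comparison. Among MA9-like cells of BM-Ctrl with 20 or more members at that depth (505 cells), 94.9% carried Mki67, 94.5% Birc5 and 91.1% Cdk1. Among the 729 with fewer than 10, Birc5 was carried by 3.7% and Ccnb1 by 2.61%, but Smc4 by 97% and Bub3 by 78.7%. In BM-shPrmt9 the cells with 20 or more numbered 734 and those with fewer than 10 numbered 499, with Birc5 in 95.5% and 10.8% of them. Carriage and the number of members come from the same counts, so this is a description of which transcripts mark the cycling cells. Smc4 and Bub3 were present in nearly all of them and mark them least.

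**Figure D3:**
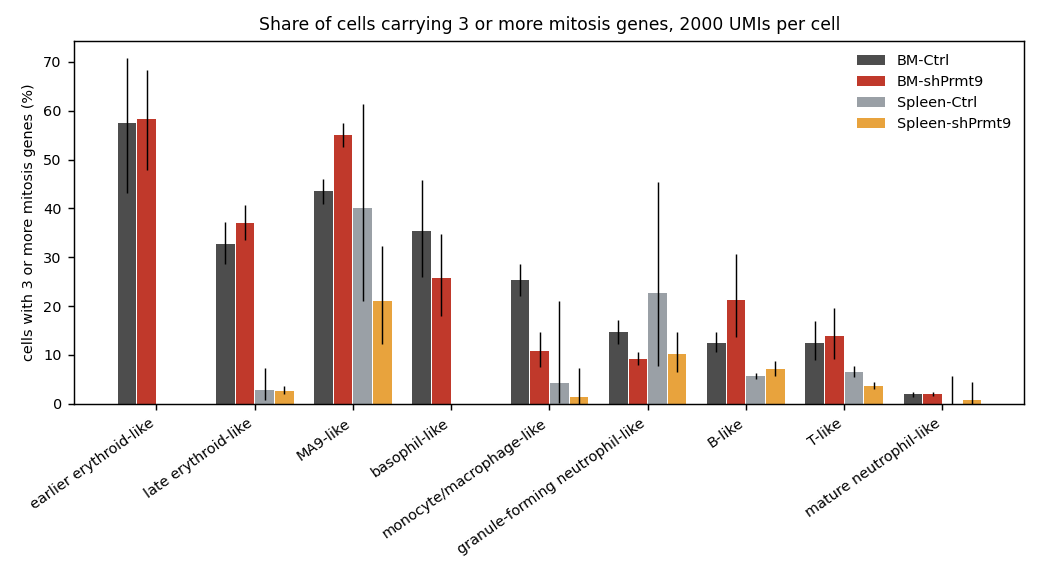
Share of cells (vertical axis, percent) in which at least 3 of the 54 genes had a UMI after thinning to 2000 UMIs per cell, by class and library, with exact binomial 95% intervals that cover counting error only. MA9-like marrow cells stand at 43.5% and 55%, mature neutrophil-like marrow cells at 1.94% and 1.99%, and late erythroid-like cells drop from marrow to spleen.

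MA9-like cells were rare in spleen, 25 in Spleen-Ctrl and 71 in Spleen-shPrmt9, and the members summed to 1639 and 1424 CPM (ratio 0.869, 0.82–0.921). A single cell held 18.7% and 21.2% of these UMIs, and the value turned to 1.07 (1.01–1.14) when 4 markers were asked for, so no direction is drawn from it. Of the 49 members with 20 UMIs or more, 9 were called higher and 12 lower, against 22.9% and 26.5% of all genes. Cenpf (9.73 to 45.9 CPM, 4.72) and Ckap2l (3.21) had the highest ratios with Ndc80, a kinetochore gene (2.32), and the condensin gene Ncaph the lowest (15 to 1.89 CPM, 0.126), followed by Bub1b (0.446) and Cdca3 (0.493). Smc4 was at 258 and 208 CPM, Bub3 at 100 and 87.5, Cenpa at 83.2 and 61.5, Cdca8 at 64.6 and 37.9, Cdk1 at 61.1 and 44 and Ube2c at 60.2 and 48.3. Hmmr (1.78), Kif11 (1.7) and Racgap1 (1.04) had ratios above 1. S-phase genes went from 1641 to 985 CPM (0.6, 0.563–0.639), with 21 of 25 called lower, and 6 of 9 cell cycle inhibitors were called higher. At least 3 members were found in 10 of 25 cells (40%, 21.1–61.3) and 15 of 71 (21.1%, 12.3–32.4). The ratio of these shares, 0.528, had an interval of 0.222 to 1.31, which is too wide for shares of this size. The intervals of the 2 shares themselves overlap, so no difference in the share is drawn at this number of cells. Without the 5 genes that mature neutrophil-like cells hold, 8 of 25 and 9 of 71 cells did (0.396, 0.136–1.18).

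MA9-like cells held the larger number of member UMIs in BM-Ctrl, 265122 against 35842 in erythroid-like cells. Erythroid-like cells of the marrow had the highest summed level in CPM among classes of at least 20 cells. These are red cell precursors, which divide several times while they fill with hemoglobin, and globin made up 65.4% of their UMIs in BM-Ctrl and 56.6% in BM-shPrmt9. The members summed to 8969 CPM (635 cells) and 7393 CPM (1141 cells), a ratio of 0.824 (0.813–0.835). The median member had a ratio of 0.746 while the median of all genes was 1.35, and 2 of 54 were called higher and 20 lower, against 38.3% and 3.38% of all genes. The members thus lay below a background that lay above 1. Scaled to UMIs outside 4 globin genes the sums were 25899 and 17029 CPM (0.658), and TMM scaling gave 0.631, so the direction held and the ratio was lower.

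Securin was the exception in these cells too. Pttg1 was at 67.8 CPM in BM-Ctrl and 241 in BM-shPrmt9 (ratio 3.55, 3.12–4.05), followed by Mki67 at 351 and 537 (1.53) and the kinetochore motor Cenpe at 117 and 151 (1.29). Ttk, the checkpoint kinase MPS1, had the lowest ratio (0.442), at 28.3 and 12.5 CPM, with Ect2 at 108 and 57.4 (0.531) and Birc5 at 551 and 295 (0.536, 0.504–0.569). Ube2c, the highest member here, was at 969 and 1061 CPM (1.09). Cenpa (616 and 375 CPM), Bub3 (126 and 78.9) and Racgap1 (109.6 and 67.8) were among those called lower, while Nusap1 (405 and 396), Ccnb2 (195 and 163) and Kif11 (129.9 and 140.1) were not called. The share of cells with at least 3 members was 35.1% (31–39.3) of 530 thinned cells and 37.8% (34.5–41.1) of 855, a ratio of 1.08 (0.896–1.3). The intervals of the 2 shares overlap, and that of the ratio is too wide for shares of this size. Thinning left out 105 and 286 shallow cells, which the summed level includes, so level and share cover different cells and are not set against each other. Without the 5 genes the shares were 30.4% and 30.6% (1.01, 0.826–1.24), and cells with 10 or more members made up 23% (19.5–26.8) and 19.1% (16.5–21.9).

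In spleen the erythroid-like cells held less of the list than in marrow. The members were at 604 CPM (161 cells) in Ctrl and 502 CPM (1559 cells) with shPrmt9, which is 0.0674 and 0.0679 of the level in marrow, and the ratio to marrow of the median member was 0.0271 and 0.0111. In each pair of libraries 50 of 54 members stood below 0.1 of their marrow level. The members above 0.2 were Pttg1 (0.865), Ube2c (0.261) and Cdc25b (0.258) in the Ctrl pair, and Pttg1 (0.7) and Cdc25b (0.296) in the shPrmt9 pair. Cdk1 was at 0.0327 and 0.00498 of its marrow level and Birc5 at 0.0109 and 0.0055. In Spleen-Ctrl 21 of the 54 members rested on 3 UMIs or fewer. The size of the difference depended on globin. Scaled to UMIs outside the 4 globin genes, the summed level in spleen was 0.127 (0.119–0.135) and 0.198 (0.194–0.202) of that in marrow, the median member was at 0.051 and 0.0325, and 41 and 46 of 54 stood below 0.1. On that scale Pttg1 turned to 1.63 and 2.04, the only member at or above its marrow level in either pair. Globin was 81.6% and 85.1% of UMIs in the spleen cells, and the spleens came from other animals than the marrows, so the part of maturation, tissue and animal cannot be told apart.

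**Figure D4:**
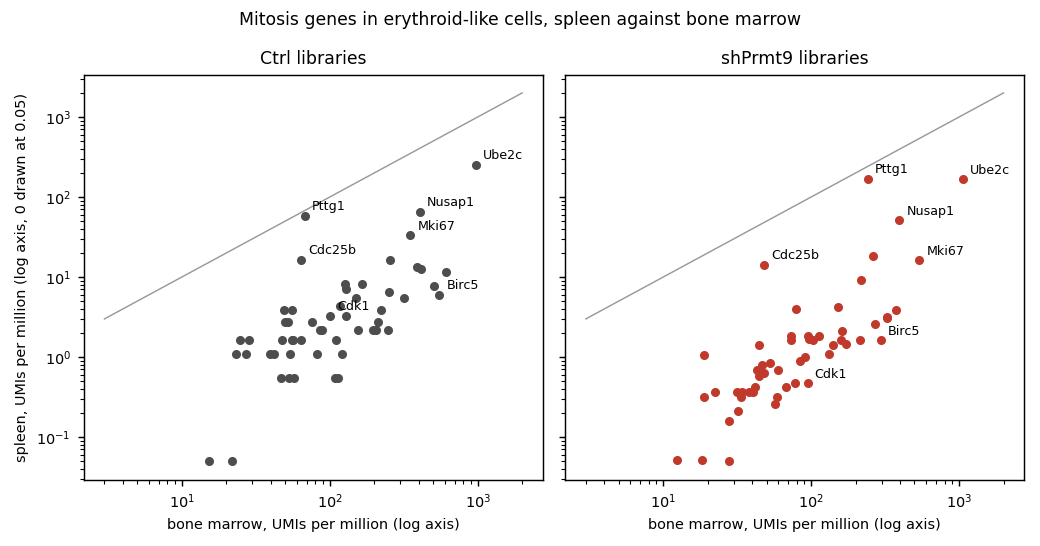
Level of each member in erythroid-like cells of spleen (vertical axis) against bone marrow (horizontal axis), in CPM on log axes, for the Ctrl libraries (left) and the shPrmt9 libraries (right), with a gray line where both are equal and genes at 0 drawn at 0.05. Nearly all members lie far below the line, and Pttg1 lies nearest to it, at 0.865 and 0.7 of its marrow level.

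Between the 2 spleens the erythroid-like ratio was 0.831 (0.781–0.885), but it turned to 1.03 (0.966–1.1) when scaled outside globin and to 1.42 (1.33–1.51) with TMM factors, so no direction is drawn for the sum. Of 32 members with enough UMIs, 3 were called higher and 19 lower, against 13.6% and 47.2% of all genes, whose median ratio was 0.69 and that of the members 0.508. Pttg1 was at 58.7 and 169 CPM (2.88, 2.37–3.52), and Cdc20, with 1 and 35 UMIs, and Knl1, with 2 and 35, were the others. The kinesins Kif23 (0.162), Kif20b (0.177) and the passenger scaffold Incenp (0.197) were lowest. Ube2c was at 253 and 168 CPM, Nusap1 at 65.2 and 51.5, Smc4 at 16.4 and 18.3 and Cdc25b at 16.4 and 14.2. Cenpa (0.341), Bub3 (0.49) and Kif11 (0.198) were called lower, and Racgap1 had 3 and 8 UMIs, too few for a call. B cell markers summed to 275 CPM in these cells of Spleen-Ctrl and 94.2 in Spleen-shPrmt9, and their part in the result was not tested. Shares of cells with at least 3 members were 2.78% and 3.67% (1 of 144 and 17 of 1415 cells without the 5 genes), against 0 of 62 and 1 of 125 mature neutrophil-like cells of spleen, where the 0 of 62 allows a share of up to 4.84%.

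T cells were the class that the study followed for an immune response, and their members are read here against the same background. T-like cells of spleen held 677 CPM (1980 cells) in Ctrl and 477 CPM (2917 cells) with shPrmt9, a ratio of 0.704 (0.687–0.721). Of 51 members with enough UMIs, 0 were called higher and 37 lower, against 11.4% and 16.9% of all genes, and the median was 0.419 against 0.971 over all genes. A single cell gave 11.3% of the member UMIs of Spleen-Ctrl. Without that cell and its counterpart in Spleen-shPrmt9 the ratio was 0.777 (0.758–0.797), and 29 of 47 were called lower (16.8% of all genes) and 2 higher, with a median of 0.605.

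Birc5, Ckap2l and Cdk1 had the lowest ratios of the 51 in these T-like cells. Birc5 was at 6.02 CPM in Spleen-Ctrl and 0.904 in Spleen-shPrmt9 (0.15, 0.0946–0.231), Ckap2l at 1.33 and 0.201 (0.151) and Cdk1 at 5.09 and 0.871 (0.171, 0.106–0.267). Mki67 was at 9.78 and 1.84 CPM (0.188), Cdc25b at 18.6 and 3.85 (0.207) and Top2a at 23.4 and 7.74 (0.33). Without the top cell Cdk1 was at 0.161, Birc5 at 0.186, Mki67 at 0.333 and Top2a at 0.397. Of the 104 Birc5 UMIs in Spleen-Ctrl, 53 were left. Other members turned from below 1 to above 1 without that cell. Cenpf went from 0.244 to 1.87 (0.86–4.48), Ube2c from 0.296 to 1.03 and Prc1 from 0.532 to 1.08. Spc25 went from 0.839 to 1.14 and Ect2 from 0.955 to 1.54, and Anln (1.27) and Tacc3 (1.01) turned as well. The 5 members that mature neutrophil-like cells held most did not move alike, since Cdc25b was among the low ones and Cenpa was called lower too (0.561), while the others were not called. Smc4 was at 228 and 190 CPM (0.834, 0.801–0.869), Bub3 at 97.6 and 94.6 (0.97, 0.913–1.03) and Pttg1 at 50.5 and 40.9 (0.811). Aurka (1.1) and Ect2 (0.955) were the others near 1, and Racgap1 (0.514), Incenp (0.666), Tacc3 (0.896) and Kif20b (0.861) were in between.

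Few T-like cells of either spleen carried the list as a program. After thinning, 6.47% (5.43–7.65) of 1977 cells in Ctrl and 3.7% (3.04–4.47) of 2835 with shPrmt9 had at least 3 members, a ratio of 0.572 (0.438–0.746). Without the 5 genes that mature neutrophil-like cells hold, the shares were 0.759% and 0.353%, a ratio of 0.465 (0.187–1.11). Mature neutrophil-like cells without the same genes gave 0.485% and 0.574% in marrow, and 0 of 62 and 0 of 125 cells in spleen. The 5 genes were picked by their level in the marrow neutrophil-like cells, which lowers that reference, so whether the T-like shares are background was not tested. In the thinned counts 1 cell in Ctrl and 0 with shPrmt9 carried 10 or more, and the 0 of 2835 allows a share of up to 0.106%. The unthinned shares with at least 3 were 48.6% and 48.4%. CD8 and CD4 T-like cells of spleen did not give the same counts. In CD8 T-like cells (743 and 494 CPM, ratio 0.665, 0.645–0.687) 0 of 49 members were called higher and 39 lower, against 11.3% and 14.9% of all genes, with a median of 0.325 against 0.985. A single cell held 17.1% of their member UMIs in Spleen-Ctrl, and without the top cell of each library 1 of 44 was called higher and 27 lower, with a median of 0.589 and a summed ratio of 0.772 (0.747–0.799). In CD4 T-like cells (576 and 472 CPM, 0.82, 0.773–0.87) 4 of 24 were called higher and 5 lower, against 11.5% and 18.1% of all genes, and the median was 0.978 against 0.956. Cdc25b (21.9 and 3.04 CPM, 0.139), Cenpa (43.7 and 18.6, 0.425) and Ndc80 (18.9 and 8.67, 0.459) were the lowest there, Top2a was at 6.96 and 7 CPM, and Birc5 had 1 and 6 UMIs. Shares of cells with at least 3 members went another way than these calls. They were 5.72% and 4.28% in CD8 T-like cells (ratio 0.748, 0.502–1.11) and 7.05% and 3.18% in CD4 T-like cells (0.451, 0.253–0.794). Without the 5 genes, 10 of 996 and 5 of 1192 CD8 T-like cells remained, and 0 of 440 and 4 of 755 CD4 T-like cells. The difference between CD8 and CD4 T-like cells was not tested. S-phase genes in the T-like cells of spleen were at 605 and 464 CPM (0.767, 0.748–0.787). B cell markers summed to 328 and 220.4 CPM in them, and their part in the result was not tested.

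In marrow, T-like cells were few (295 and 190) and the members were at 886 and 810.2 CPM, a ratio of 0.915 (0.852–0.982) that turned to 1.08 (1–1.17) without the top cell, which held 24.3% of the UMIs in BM-Ctrl, and to 1.05 (0.964–1.14) without the deepest 5% of cells. Of 23 members, 2 were called higher and 7 lower, against 11.2% and 11.5% of all genes. Birc5, with 8 and 27 UMIs, was at 3.79 and 16.8 CPM (4.43), the reverse of spleen, and Nusap1 (1.66) and Tacc3 (1.49) came next. Elane, which T cells do not make, was at 27 and 67.1 CPM in the same cells, and its part in the result was not tested. Prc1 (0.312), Ube2c (0.437) and Cdc25b (0.492) were lowest. Smc4 (185 and 177 CPM), Bub3 (103 and 101), Cenpa (114 and 138) and Pttg1 (71.5 and 78.2) were not called, nor was Kif20b (9 and 7.45), while Incenp (0.643) and Racgap1 (0.587) were called lower. The shares of cells with at least 3 members, 12.5% and 13.8%, gave a ratio of 1.11 with an interval of 0.641 to 1.88, and without the 5 genes 1 of 288 and 3 of 188 cells remained.

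Other classes of the myeloid line and B cells were compared in the same way. Neutrophil progenitor-like cells of marrow were at 2485 CPM (190 cells) in Ctrl and 2690 CPM (267 cells) with shPrmt9. There, 11 of 54 members were called higher and 1 lower, against 12.8% and 10.9% of all genes. At least 3 members were found in 42.6% and 53.3% of the thinned cells (1.25, 0.919–1.71), with 7 and 85 cells left out as too shallow. In granule-forming neutrophil-like cells of marrow the members were at 2426 CPM in Ctrl and 1344 with shPrmt9 (ratio 0.554, 0.545–0.563), with 0 of 54 called higher and 42 lower, against 9.8% and 16.5% of all genes, and a median of 0.538 against 0.878 over all genes. Their lowest ratios were those of Cdca8 (101 to 36.6 CPM, 0.361), Ncapg (0.407) and Prc1 (0.416), and the highest those of Pttg1 (19.3 to 25 CPM, 1.3), Cdc25b (1.06) and Cdc25c (0.99). Smc4 was at 232 and 125 CPM, Ube2c at 135 and 82, Cenpa at 88.9 and 57.8 and Birc5 at 84.8 and 45.1. Bub3, at 82.7 and 63.7 CPM (0.77), differed less. Nusap1 (0.469), Cdca3 (0.484), Racgap1 (0.468) and Kif11 (0.52), the leading genes of the other groups, lay near the median. At least 3 members were found in 14.6% and 9.23% of these cells, and in 12.5% and 7.81% without the 5 genes (0.625, 0.483–0.811). Cells of this class with at least 3 MA9 markers numbered 42 of 821 in BM-Ctrl and 234 of 2042 in BM-shPrmt9, and their part in the result was not tested.

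Monocyte/macrophage-like cells of marrow were at 3181 and 1720 CPM (0.541, 0.53–0.551), with 1 of 54 called higher and 43 lower, against 14.7% and 14.1% of all genes, and a median of 0.549 against 0.98 over all genes. Ndc80 (0.343), Top2a (305 to 106 CPM, 0.347) and Nuf2 (0.376) were lowest, and Pttg1 was the 1 called higher, from 25.3 to 53.7 CPM (2.12, 1.84–2.44). Ccnb1 (1.06) and Bub3 (0.807) came next. Ube2c was at 187 and 97.5 CPM, Cenpa at 138 and 93.5, Cdca8 at 133 and 50.2 and Nusap1 at 88.5 and 35.2, while Cdca3 (0.495), Racgap1 (0.565) and Kif11 (0.464) were in the same range. The share with at least 3 members went from 25.3% to 10.8% (ratio 0.426, 0.288–0.614), and without the 5 genes from 21.5% to 8.92% (0.415, 0.269–0.62). Cells of this class with at least 3 MA9 markers were 82 of 723 in BM-Ctrl and 26 of 330 in BM-shPrmt9, and their part was not tested.

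B-like cells of spleen went the other way. The sums were 550.5 CPM (5885 cells) and 662 CPM (1275 cells), a ratio of 1.2 (1.18–1.23), and 36 of 54 members were called higher and 2 lower, against 11.3% and 23.7% of all genes, with a median of 1.88 against 0.89 over all genes. The cyclin Ccna2 went from 1.14 to 4.48 CPM (3.93, 2.82–5.54), Nusap1 from 3.8 to 13.5 (3.55), Nuf2 from 0.569 to 1.98 (3.49) and Birc5 from 2.6 to 8.78 (3.37). Cdc25b (28.2 to 12 CPM, 0.427) and Cenpa (49.1 to 32, 0.652) were the 2 called lower, and Ndc80 (0.812) had the next lowest ratio, while Smc4 (121 and 111) and Bub3 (95.7 and 97.7) differed little. Racgap1 (2.15) and Tacc3 (1.57) were called higher, and Incenp (1.3), Kif20b (1.24) and Pttg1 (1.12) were not. Shares with at least 3 members were 5.61% and 7.09%, a ratio of 1.26 with an interval of 0.987 to 1.6. Without the 5 genes that mature neutrophil-like cells hold, the shares were 0.637% (0.449–0.876) and 2.82% (1.97–3.9), a ratio of 4.43 (2.71–7.23). Cells with 10 or more members were 5 of 5813 (0.086%, 0.0279–0.201) and 14 of 1242 (1.13%, 0.618–1.88), so the cells that carried many of the genes together made up a larger share in Spleen-shPrmt9. The number of B-like cells and their median depth, 6409 and 14510 UMIs, differed between these libraries. B-like cells of marrow were at 1911 CPM (1104 cells) in Ctrl and 2539 CPM (102 cells) with shPrmt9. Of their 54 members 19 were called higher and 0 lower, against 10.2% and 17.2% of all genes. The shares with at least 3 members were 12.5% and 21.2% (1.7, 1.02–2.7), and a single cell held 15% of the member UMIs in BM-shPrmt9.

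**Figure D5:**
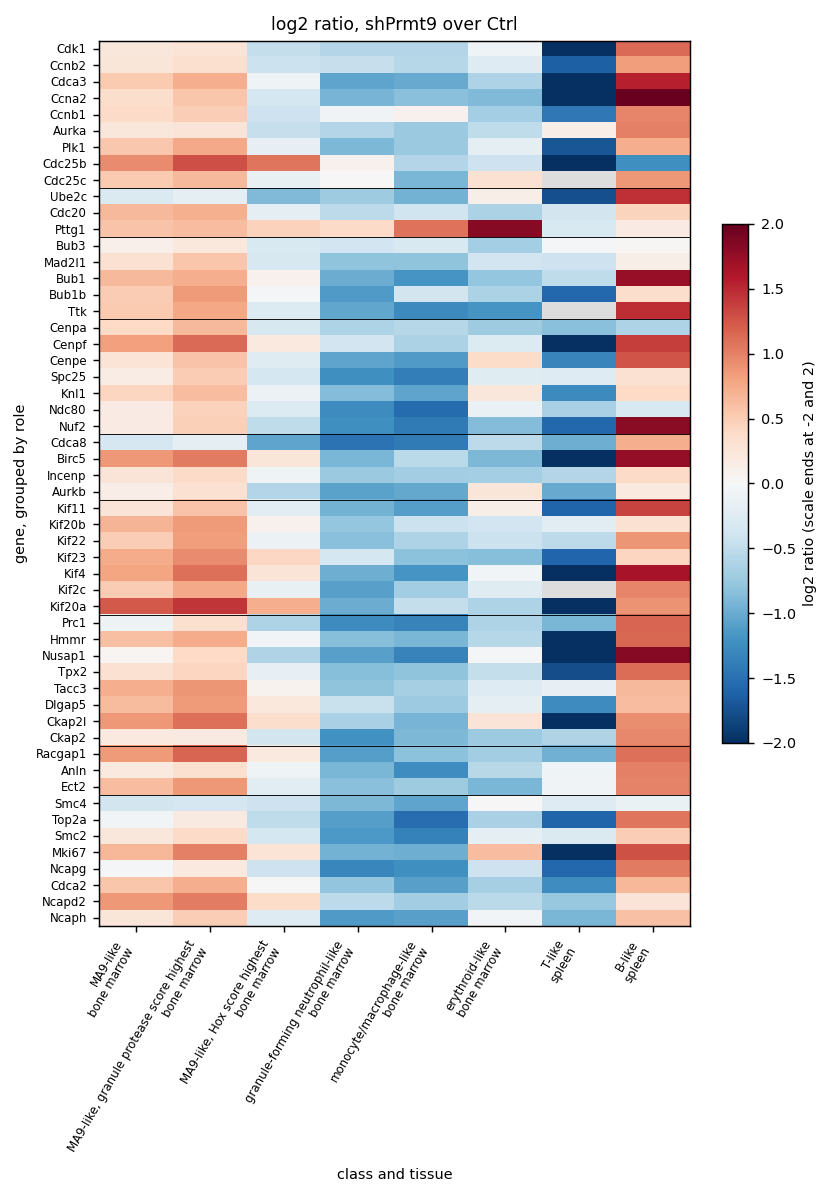
Log2 ratio of shPrmt9 over Ctrl for each member (rows, grouped by role) in 8 pairs of classes and tissues (columns), red where higher and blue where lower with shPrmt9, and gray under 20 UMIs. Columns of granule-forming neutrophil-like, monocyte/macrophage-like and splenic T-like cells are mostly blue and that of splenic B-like cells mostly red, and the Pttg1 row is red in marrow columns where its neighbors are blue.

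Pttg1 parted from the other members in several classes of marrow. Its ratio was above 1 in all 7 non-lymphoid classes compared there, and no other member was above 1 in more than 4 of them. Pttg1 did not stand apart in MA9-like and neutrophil progenitor-like cells, where 48 and 38 of 54 members had ratios above 1. In order of class, it went from 23.3 to 34.7 CPM in MA9-like cells, 24 to 36.4 in neutrophil progenitor-like cells, 19.3 to 25 in granule-forming neutrophil-like cells and 37.6 to 64.8 (1.72, 1.57–1.9) in mature neutrophil-like cells. It went from 25.3 to 53.7 CPM in monocyte/macrophage-like cells, 31.3 to 37.2 in basophil-like cells and 67.8 to 241 in erythroid-like cells, and only the interval of the basophil-like ratio (1.19, 0.78–1.83) reached below 1. The 7 classes come from the same pair of libraries, so they are not replicates of each other, and Pttg1 was picked out after its values had been seen. In lymphoid classes of marrow Pttg1 was at 39.7 and 35 CPM in B-like cells (0.881, 0.611–1.24), where 47 of 54 members had ratios above 1. In T-like cells of marrow it was at 71.5 and 78.2 (1.09, 0.857–1.4). In spleen it was at 30.8 and 34.5 CPM in B-like cells and at 50.5 and 40.9 in T-like cells.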

How the data were processed

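Bone marrow and spleen cells were profiled with 10x Genomics 3′ chemistry, 1 library in each of 4 groups that the sample titles name. The authors ran Cell Ranger (6.1.1 in the submitters' processing notes, 6.0.2 in the matrix headers) on mm10 and deposited unnormalized UMI counts for each barcode. How reads of near-identical copies were counted is not given in the sources used here. Barcodes under 200 genes or over 20% mitochondrial UMIs were left out. A cell carried a marker when its level was at least the mean of the 4 library-wide levels, and joined the class with the highest mean log2 score (pseudocount 50 CPM) among the 16 marker lists of which it carried at least 3. Cells with 3 or more MA9 markers whose best class was neutrophil progenitor were counted as MA9-like, a rule set after the data had been seen. Cells with markers of another lineage were left out as mixed, with no doublet caller. Erythroid-like cells join the earlier and late classes.

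UMIs were summed over cells and scaled to 1000000 UMIs of the class. Ratios have exact conditional (Clopper-Pearson) intervals, levels exact Poisson and shares exact binomial intervals, all at 95% and covering counting error only, since 1 library per group allows no test. For ratios of shares the interval treats numbers of cells as Poisson counts, which makes it too wide where shares are large. A gene was called when it differed by at least 1.5-fold with at least 20 UMIs over both libraries. For shares, cells were thinned to 2000 UMIs and shallower cells left out. A limit for a count of 0 uses 3 counts. The interval code was tested on simulated data. TMM factors came from edgeR 4.0.16 in R 4.3.3, other steps used python 3.11.15 with numpy 2.4.6, scipy 1.17.1 and pandas 2.3.3. Alternatives covered scaling, averaging over cells, mixed cells, deep cells, the mitochondrial limit, the number of markers, the leading genes, the thinning depth and the fold. The protease gate, scaling outside globin, shares without 5 members and CD8 T-like cells without the top cell were chosen after seeing the data. Named in each comparison are the member with the most UMIs of each role group, the 3 highest and the 3 lowest ratios, and members that a sentence turns on. The members, lists and markers were chosen with earlier results of these data known. Promoters come from RefSeq (GRCm38.p6), matched by symbol for 45 of 54 members. The missing ones were Ccna2, Cdc25c, Aurkb, Incenp, Kif20a, Tpx2, Dlgap5, Cdca2 and Smc4.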

Additional observations from a re-analysis of the deposited data

Results flagged for a closer look

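Effects of opposite direction in pairs of classes drew a closer look, in each case without a test, since a single library per group leaves none. The ratio of the summed mitosis genes, shPrmt9 over Ctrl, was 1.35 times as high in MA9-like cells of bone marrow as in MA9-like cells of spleen. It was 1.28 times as high as in marrow T-like cells and 1.42 times as high as in marrow erythroid-like cells. Within MA9-like cells of bone marrow, cells with the granule protease score highest had a ratio 1.6 times that of cells with the Hox score highest. None of these differences was tested. The first 3 rest on the marrow MA9-like ratio of 1.17, which turned to 0.825 when protease-led cells were counted as neutrophil progenitors, beside 0.869 in splenic MA9-like, 0.915 in marrow T-like and 0.824 in marrow erythroid-like cells, so the opposite directions depend on that gate. The values of splenic MA9-like and marrow T-like cells also turned direction, with 4 markers and without a single cell.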

How the results depend on the processing

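No paired analysis was possible because each group is 1 library. Of 86 recomputed values, 40 stayed within the interval or 1.5-fold limit of the reported value, 39 moved outside it and 7 turned direction, and the cause was not tested. The 7 that turned were, with protease-led cells counted as neutrophil progenitors, the marrow MA9-like level (0.825) and share (0.726), the splenic MA9-like level with 4 markers (1.07), the marrow T-like level without the deepest 5% of cells (1.05) or the top cell (1.08), and the splenic erythroid-like level with TMM factors (1.42) or outside globin (1.03). With TMM factors the levels were 1.15 (MA9-like, marrow), 0.959 (MA9-like, spleen), 0.73 (T-like, spleen) and 0.631 (erythroid-like, marrow). As a mean over cells they were 1.13, 0.782, 0.994 (T-like, marrow), 0.818 (T-like, spleen) and 0.47 (erythroid-like, spleen). Without the deepest 5% of cells they were 1.15, 0.95, 0.844 (T-like, spleen) and 0.807 (erythroid-like, marrow). Without the top cell they were 0.803 (MA9-like, spleen) and 0.777 (T-like, spleen). Without the 5 members with the most UMIs they were 1.32, 0.934, 0.838 (T-like, marrow), 0.566 (T-like, spleen) and 0.993 (erythroid-like, spleen). With mixed cells kept the marrow MA9-like level was 1.18, with 4 markers 1.16, and the marrow erythroid-like level was 0.881 with 4 markers and 0.658 outside globin. Protease-led cells left out gave 0.8 for splenic MA9-like cells. Mitosis over S-phase genes was 0.635 as a mean over cells, 0.649 with mixed cells, 0.636 without the deepest cells, 0.629 with 4 markers, 0.725 without 5 members and 0.611 without protease-led cells. The marrow MA9-like share ratio was 1.08 at 5000 UMIs, with an interval (0.997–1.18) too wide for such large shares, and 1.14 for 2 genes. The splenic T-like one was 0.87 at 1000 UMIs, 0.803 for 2 genes and 0.279 for 5. At 2-fold, 1 member was called in marrow and 7 in splenic MA9-like cells. At 1.5-fold, 6 (2 higher, 4 lower) were called in marrow without protease-led cells. As a mean over cells, splenic MA9-like calls were 5 higher and 17 lower against 9 and 12. The number of cells limits splenic MA9-like and erythroid-like cells, of which Spleen-Ctrl held 25 and 161.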
